A study of Sus scrofa with 9 samples.

Results

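Enzymes of fatty acid remodelling were followed in the liver of piglets on 3 iron levels. These were the desaturases FADS1, FADS2 and SCD and the elongases ELOVL2 and ELOVL5. The 5 genes were chosen by name from the 25918 rows of the liver expression table, of which 20660 carry an annotated gene. The choice was made with the differences of both iron diets from the control known, so these differences are described and carry no test. All 5 passed the filter on low values, a mean of at least 0.5 FPKM (fragments per kilobase of transcript, scaled to the mapped fragments of the library) over the 9 libraries.

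The animals were Wujin pigs, a Chinese breed, taken at 35 days of age, kept for 5 days on pre-feeding and then fed the test diets for 30 days. All groups received the same basic diet, which itself contains iron. The low-iron group had 0 mg/kg of iron added, the control group 100 mg/kg and the high-iron group 200 mg/kg, as iron glycinate. Liver RNA of 3 pigs per group was sequenced, 1 library per pig, and libraries are named by group and animal number. Both sexes were used in the study, and the labels do not give the sex of a library. The values come without reads per gene. The read totals that the study gives for each library were not used here, and no counting interval is given.

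A desaturase inserts a double bond into a fatty acid chain. FADS2 and FADS1 act in sequence on the dietary essential fatty acids linoleic and alpha-linolenic acid, with an elongation step between them, and their products include arachidonic and eicosapentaenoic acid. SCD makes the monounsaturated oleic and palmitoleic acids from saturated chains. ELOVL5 and ELOVL2 add carbons to polyunsaturated chains, and ELOVL2 acts on the longest of them on the way to docosahexaenoic acid. The desaturases are membrane enzymes of the endoplasmic reticulum that hold a pair of iron atoms at the active site and draw electrons from cytochrome b5, whereas the elongases need no iron. In liver, desaturase transcription is known to respond to SREBP and PPAR-alpha and to dietary polyunsaturated fatty acids.

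FADS1 and FADS2 lie close together on chromosome 2 of the Sscrofa11.1 build and are read in opposite directions. FADS2 occupies chr2:9633941-9666666 on the minus strand and FADS1 chr2:9735425-9747405 on the plus strand, each with 12 exons, and 68758 bases separate the starts of their annotated models. The FADS1 model is partial, so its true start is not fixed and no promoter window was read for it. SCD is at chr14:111461560-111478033 on the plus strand, ELOVL2 at chr7:7651707-7732353 and ELOVL5 at chr7:46860768-46932945, both on the minus strand. The FADS2 and SCD promoters are shown because FADS2 passed the thresholds below against the control and SCD, another iron-holding desaturase, did not. Each run is the 250 bases before the annotated start in Sscrofa11.1, read 5′ to 3′ on the gene's own strand, at chr2:9666667-9666916 (minus strand) for FADS2 and chr14:111461310-111461559 (plus strand) for SCD. Capitals mark GGGCGG (the Sp1 box) in FADS2 and CCAAT (the NF-Y box) in SCD.
FADS2: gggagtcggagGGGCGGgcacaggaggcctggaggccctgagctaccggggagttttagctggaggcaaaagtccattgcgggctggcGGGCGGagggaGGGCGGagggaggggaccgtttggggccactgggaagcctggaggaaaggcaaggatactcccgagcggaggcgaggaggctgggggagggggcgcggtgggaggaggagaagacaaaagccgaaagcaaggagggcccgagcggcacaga
SCD: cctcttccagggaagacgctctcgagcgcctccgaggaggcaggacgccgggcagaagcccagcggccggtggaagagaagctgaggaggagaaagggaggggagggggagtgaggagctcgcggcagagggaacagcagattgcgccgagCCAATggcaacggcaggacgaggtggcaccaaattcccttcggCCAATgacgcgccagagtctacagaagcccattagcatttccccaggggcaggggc
Both strands of the 4 windows that could be read were searched for a sterol regulatory element (TCACNCCAC), the NF-Y box (CCAAT), the Sp1 box (GGGCGG), an E-box (CACGTG) and a nuclear receptor half-site (AGGTCA). The FADS2 window held GGGCGG 3 times and no CCAAT, and the SCD window held CCAAT 2 times and no GGGCGG. The ELOVL2 window held GGGCGG 5 times, with 1 pair of these matches overlapping, and the ELOVL5 window held CCAAT 2 times, GGGCGG 1 time and CACGTG 1 time. Neither TCACNCCAC nor AGGTCA was found in the 4 windows, and other forms of these elements were not searched for. These are matches of letters only. Of 20319 promoters of the same length, 44.6% held the Sp1 box, 32.0% the NF-Y box, 6.2% the E-box, 12.3% the half-site and 0.8% the sterol regulatory element.

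FADS1, which makes arachidonic acid, was highest in the low-iron livers and lowest in the controls. Low-iron libraries 2, 3 and 7 gave 87.9, 52.8 and 49.8 FPKM. Control libraries 4, 5 and 6 gave 10.5, 41.0 and 13.2 FPKM, and high-iron libraries 2, 7 and 8 gave 39.1, 30.9 and 49.1 FPKM. Every low-iron library was above every control library, while the high-iron values lay on both sides of control 5. The group means were 63.5 ± 21.2, 21.6 ± 16.9 and 39.7 ± 9.14 FPKM (SD, n = 3 each) in the order low iron, control, high iron. On the log2(FPKM + 0.1) scale the low-iron mean was 1.78 above the control mean (SE 0.45), a 3.42-fold difference, and the high-iron mean was 1.12 above it (SE 0.45), a 2.18-fold difference. Both comparisons use the same 3 control libraries.

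FADS2, which takes the entry step of the same route, had the same order of groups at a higher level. Its values were 156, 107 and 110 FPKM in low-iron libraries 2, 3 and 7, with a mean of 124 ± 27.7 (SD, n = 3). The controls 4, 5 and 6 gave 26.3, 90.3 and 55.5 FPKM, with a mean of 57.4 ± 32.1. The high-iron libraries 2, 7 and 8 gave 89.9, 84.9 and 143 FPKM, with a mean of 106 ± 32.3. The low-iron and control libraries again did not overlap, and the high-iron libraries overlapped with both. The log2 difference from the control was 1.26 (SE 0.39) with low iron, or 2.40-fold, and 1.02 (SE 0.39) with high iron, or 2.02-fold.

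**Figure D1:**
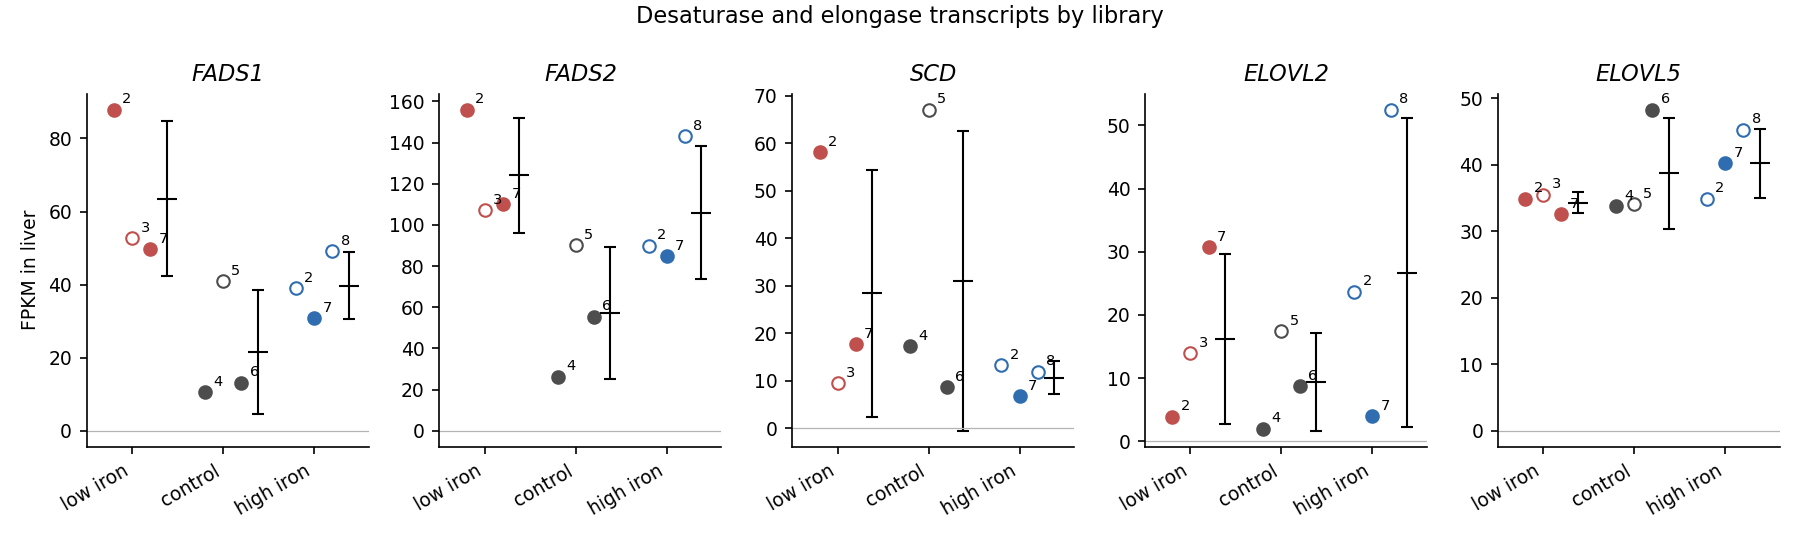
FPKM of the 5 genes in each liver library, with the animal number beside each point and the group mean and SD as a black bar. Open points are libraries in which the Y-linked gene EIF1AY was listed at 0. All 3 low-iron points lie above the control points for FADS1 and FADS2, and SCD, ELOVL2 and ELOVL5 overlap between low iron and control.

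SCD, the desaturase of saturated chains, did not share this order. It stood at 58.1, 9.47 and 17.6 FPKM in low-iron libraries 2, 3 and 7, at 17.2, 67.1 and 8.59 FPKM in controls 4, 5 and 6, and at 13.3, 6.72 and 11.9 FPKM in high-iron libraries 2, 7 and 8. A single library carried most of the level in each of the first 2 groups, low-iron 2 and control 5. The log2 difference from control was -0.01 (SE 0.75) with low iron and -1.07 (SE 0.75) with high iron, and in both cases the groups overlapped.

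The ratio of FADS1 to SCD was lowest on average in the controls. It was 0.609, 0.611 and 1.54 in controls 4, 5 and 6. In low-iron libraries 2, 3 and 7 it was 1.51, 5.58 and 2.84, and in high-iron libraries 2, 7 and 8 it was 2.95, 4.59 and 4.14. Control 6 lay just above low-iron 2, so these groups overlapped, and every high-iron library was above every control. The mean ratio was 3.31 ± 2.07 with low iron, 0.92 ± 0.536 in the controls and 3.89 ± 0.852 with high iron (SD, n = 3). The ratio carries the FADS1 values on which the genes were chosen and is a description. The ratio of FADS2 to FADS1 ranged only from 1.78 to 4.20 over the 9 libraries, with means of 2.0 ± 0.216, 2.97 ± 1.08 and 2.65 ± 0.318 in low iron, control and high iron.

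ELOVL2 was the most variable of the 5. Low-iron libraries 2, 3 and 7 gave 3.89, 13.9 and 30.7 FPKM, controls 4, 5 and 6 gave 2.0, 17.4 and 8.71 FPKM, and high-iron libraries 2, 7 and 8 gave 23.7, 3.99 and 52.5 FPKM. Each group held both a low and a high library, and the groups overlapped. The log2 differences from control, 0.80 (SE 1.03) with low iron and 1.32 (SE 1.03) with high iron, were close to their standard errors. ELOVL5, the elongase that follows FADS2, was nearly level: 34.9, 35.5 and 32.6 FPKM with low iron, 33.8, 34.1 and 48.3 FPKM in the controls and 34.9, 40.3 and 45.3 FPKM with high iron. Its log2 differences from control were -0.15 (SE 0.19) and 0.07 (SE 0.19).

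By the thresholds applied to all genes, at least 2-fold with p under 0.05 before adjustment (limma), FADS1 and FADS2 were called higher in both iron groups against the control, and SCD, ELOVL2 and ELOVL5 in neither. Across the 12584 genes tested, 0.882% were called with low iron and 1.57% with high iron. Non-overlap of the groups was found for 8.34% of genes with low iron, where FADS1 and FADS2 showed it, and for 10.9% with high iron, where none of the 5 did. As these contrasts chose the genes, nothing is read from the counts. Control 4 had the lowest FADS1, FADS2 and ELOVL2 of all libraries. Without control 4, FADS1 was still called with low iron (log2 1.39, SE 0.45), whereas FADS2 was not (log2 0.79, SE 0.32). With high iron neither was called without control 4 (FADS1 0.74, SE 0.45, and FADS2 0.54, SE 0.32) or without high-iron 8 (FADS1 0.96, SE 0.51, and FADS2 0.78, SE 0.43). FADS1 also lost its call with high iron without control 6 (0.91, SE 0.5) and without high-iron 2 (1.12, SE 0.52), where FADS2 kept its own. ELOVL2 was called higher with high iron without high-iron 7 (log2 2.36, SE 0.94) and with array quality weights (log2 2.35, SE 1.05). SCD was called lower with high iron without control 6 (log2 -1.73, SE 0.75).

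**Figure D2:**
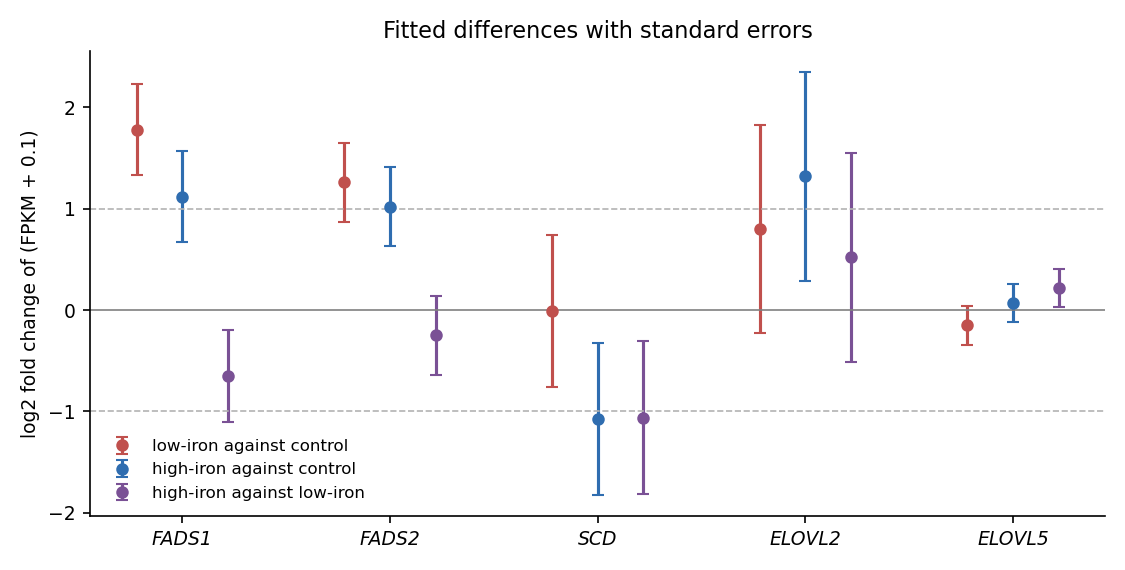
Fitted log2 fold changes of FPKM + 0.1 for the 5 genes in the 3 comparisons, with bars of 1 standard error and dashed lines at a 2-fold change. FADS1 and FADS2 lie above the upper line against the control with either diet, and the bars of SCD and ELOVL2 are the longest.

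The comparison of high iron with low iron is the difference of both contrasts known when the genes were chosen. It was therefore fixed by values known at the choice. Its intervals and adjusted p-values describe the fit and are not read as a test. None of the 5 genes passed the thresholds there, against 1.54% of all genes tested. FADS1 was 0.65 lower on the log2 scale with high iron (log2 -0.65, 95% interval -1.64 to 0.33, limma adjusted p over all genes 0.813). Its groups did not overlap, since the highest high-iron value, 49.1 FPKM, was just under the lowest low-iron value, 49.8 FPKM, and 13.2% of all genes had groups that did not overlap. FADS2 differed by -0.25 (interval -1.12 to 0.63, limma adjusted p 0.943). SCD differed by -1.06 (interval -2.72 to 0.60, adjusted p 0.818, limma), ELOVL2 by 0.52 (interval -1.75 to 2.80, 0.958) and ELOVL5 by 0.22 (interval -0.20 to 0.64, 0.855). The intervals of FADS1, FADS2, SCD and ELOVL2 all reached past a 2-fold decrease, and that of ELOVL2 also past a 2-fold increase, while that of ELOVL5 stayed within 2-fold.

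Between genes, levels were compared in FPKM, which is per length. FADS2 had the highest mean over the 9 libraries, 95.8 FPKM, and was above FADS1 in 9 of 9. FADS1 followed at 41.6, then ELOVL5 at 37.7, SCD at 23.3 and ELOVL2 at 17.4 FPKM. Below FADS2 the order was not firm: FADS1 exceeded ELOVL5 in 6 of 9 libraries, ELOVL5 exceeded SCD in 7 of 9 and SCD exceeded ELOVL2 in 4 of 9. The partial FADS1 model, with 1311 transcript bases, may bear on its level per length.

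The 5 genes also differed in how much pigs of the same group varied. The SD within groups of log2(FPKM + 0.1) was 1.65 for ELOVL2, larger than in 99.0% of the genes tested, and 1.19 for SCD, larger than in 97.2%. It was 0.69 for FADS1 and 0.60 for FADS2, larger than in 88.5% and 83.9% of genes. ELOVL5, with 0.20, was below the median of all genes, 0.34, and only 15.8% of genes varied less. Among genes of like mean level the share that varied less was 99.8% for ELOVL2 and 99.2% for SCD. It was 95.7% for FADS1, 92.6% for FADS2 and 25.8% for ELOVL5. From the lowest to the highest library, ELOVL2 spanned 26.18-fold, SCD 9.99-fold, FADS1 8.39-fold, FADS2 5.94-fold and ELOVL5 1.48-fold.

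The deviations of FADS1 and FADS2 from their group means were set against each other. Pearson's r was 0.89 and Spearman's rho 0.77 over the 9 libraries. In an exact two-sided permutation within groups (216 arrangements, smallest possible p 0.00463) p was 0.0324 for r and 0.0648 for rho. Adjusted over the 10 pairs of the 5 genes, these became 0.255 and 0.309 (exact permutation), so the relation did not pass the correction. Without the 2 libraries farthest from the median, control 5 and low-iron 2, r was 0.84. FADS1 and SCD gave r = 0.84 and rho = 0.82 (exact permutation p 0.0509 and 0.037, adjusted 0.255 and 0.309), but r was 0.11 without the same 2 libraries, so that relation rested on them. The other 8 pairs had r between -0.47 and 0.58 over the 9 libraries, all with adjusted p of at least 0.309 in the exact permutation test of either measure. Among these, leaving out control 5 and low-iron 2 took FADS1 and ELOVL2 from r = 0.40 to 0.92. It took FADS1 and ELOVL5 from -0.15 to 0.60.

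**Figure D3:**
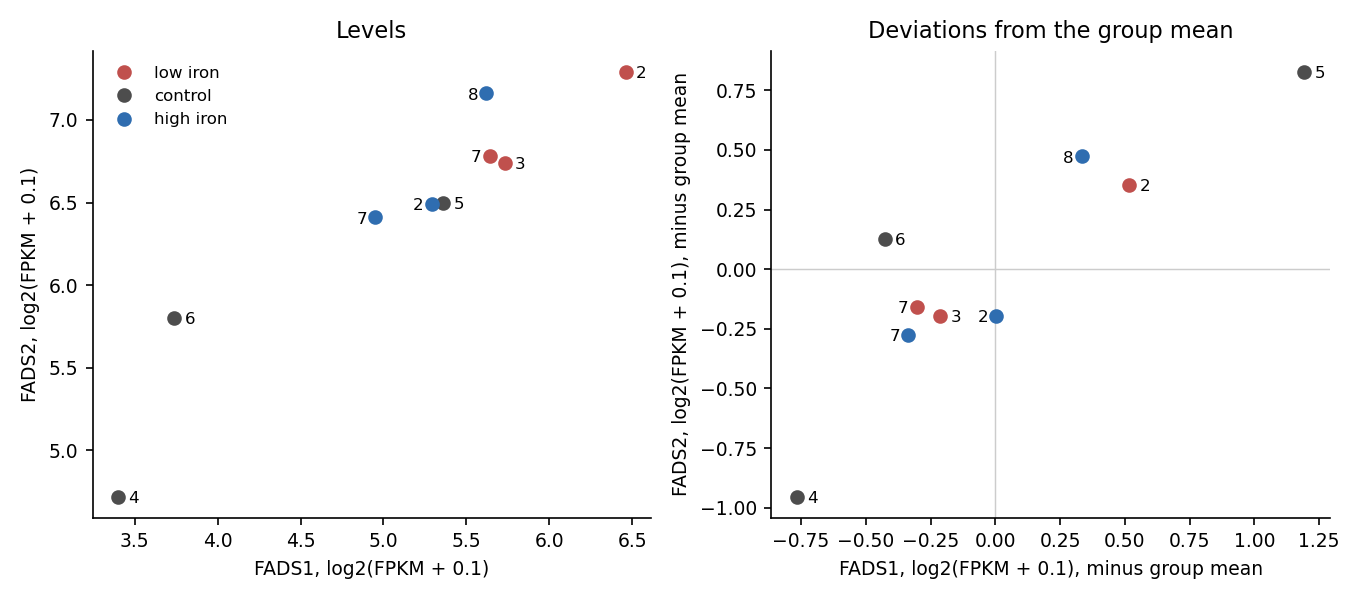
FADS2 against FADS1 in the 9 libraries, both as log2(FPKM + 0.1), on the left as measured and on the right after subtraction of each group's mean; numbers are animal numbers. The deviations have r = 0.89, with control 5 at the upper end and control 4 at the lower end.

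Likeness over all 9 libraries was taken as Pearson's r of log2(FPKM + 0.1) and is described without a test. Genes named only by a placeholder (LOC) number and newly assembled genes were left out of the lists, but the places quoted count them. The genes most like FADS1 were STAB2 at 0.952, CCDC159 at 0.949 and MCT7 at 0.948. CCDC159 was near the filter on low values, at 0.274 to 0.753 FPKM. The group means were left in, so r also carries the diet differences known when the genes were chosen. STAB2 is a scavenger receptor of the sinusoidal endothelium, and MCT7 is a tryptase, a protease of mast cells. FADS2 came in place 4 of 12583 genes with r = 0.94. STAB2 ran from 11.8 FPKM in control 4 to 27.5 FPKM in low-iron 2, the same libraries that were lowest and highest for FADS1. Those most like FADS2 were MCT7 at 0.957, FADS1 at 0.942 and STAB2 at 0.927. For SCD they were MTMR10 at 0.941, ADK (adenosine kinase) at 0.938 and RETREG1 at 0.919. For ELOVL2 they were RHOU at 0.917, ISCA1, an iron-sulfur cluster assembly factor, at 0.914 and SLC6A11 at 0.876. For ELOVL5 they included RGS12 at 0.921 and RABL3 at 0.907.

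TFRC, the transferrin receptor, served as a check on iron state. It gave 87.9, 130 and 28.6 FPKM with low iron, 6.51, 17.0 and 7.51 FPKM in controls and 40.6, 15.9 and 18.5 FPKM with high iron. TFRC had r = 0.84 with FADS1, place 15 of 12583, and r = 0.71 with FADS2, place 122. Group means were left in, so both r carry the diet differences known when FADS1 and FADS2 were chosen, and are a description. Every low-iron library was above every control for TFRC, and control 5 was the highest control for TFRC, FADS1 and FADS2 alike. HAMP, the gene of the iron hormone hepcidin, was at 3.84, 2.02 and 70.5 FPKM with low iron and at 50.3, 42.0 and 16.2 FPKM in the controls. With high iron it was at 52.3, 6.87 and 21.8 FPKM, so neither gene was ordered by dietary iron over the 3 groups.

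Libraries also differed in EIF1AY, a gene of the Y chromosome. It was between 15.0 and 26.5 FPKM in low-iron 2 and 7, control 4 and 6 and high-iron 7, and at 0 in low-iron 3, control 5 and high-iron 2 and 8. Within libraries that had EIF1AY, FADS1 was 87.9 and 49.8 FPKM with low iron, 10.5 and 13.2 FPKM in controls and 30.9 FPKM in the 1 high-iron library. Within those at 0, FADS1 was 52.8 FPKM with low iron, 41.0 FPKM in the control and 39.1 and 49.1 FPKM with high iron. The low-iron libraries were thus above the controls on both sides, and the margin at 0 was small and rested on 1 library per group. ELOVL2 differed most between the sides. It was 2.0 to 30.7 FPKM (median 3.99) in the 5 libraries with EIF1AY and 13.9 to 52.5 FPKM (median 20.5) in the 4 at 0, a log2 difference of 1.83 (SE 0.73) beside the diet term (limma adjusted p over all genes 0.45). FADS1 was 0.66 higher in the libraries at 0 (SE 0.34, limma adjusted p 0.548), FADS2 0.45 (SE 0.32), SCD 0.53 (SE 0.66) and ELOVL5 -0.06 (SE 0.16). With log2 EIF1AY in the fit, FADS1 and FADS2 remained called with low iron (1.78 and 1.27) and were not called with high iron (0.93 and 0.88).

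Genes beside the desaturase pair on chromosome 2 were read as well. Of the 6 other tested genes of the neighbourhood, none was called against the control with either diet. FTH1, the ferritin heavy chain, stood 0.16 above control with low iron (SE 0.26) and -0.25 from it with high iron (SE 0.26). FEN1, next to FADS1, was 0.84 above control with low iron (SE 0.33) and 0.07 with high iron (SE 0.33). Over the 9 libraries these genes had r between -0.37 and 0.23 with FADS1 and between -0.26 and 0.23 with FADS2. FADS3, the related desaturase of the same cluster, was under the filter, with 0.00 to 0.832 FPKM.

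**Figure D4:**
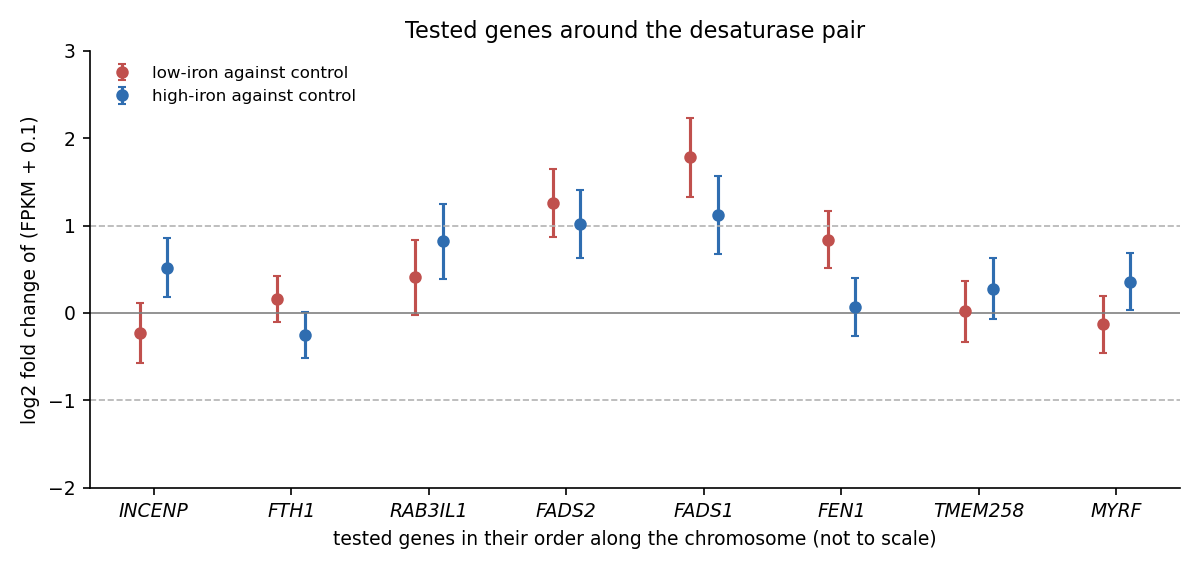
Log2 fold changes of FPKM + 0.1 against the control, with bars of 1 standard error, for the tested genes around FADS2 and FADS1 in their order along the chromosome. Dashed lines mark a 2-fold change, and only the points of the desaturase pair lie beyond the upper one.

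Few genes of the wider pathway were called. Of 82 genes on 7 lists around these enzymes, 78 were matched and 67 tested. With low iron 1 of the 67 was called, or 1.49%, with high iron also 1, or 1.49%, and between high and low iron 0, all by limma at the thresholds above. These shares are near those of all genes. The median log2 difference was 0.10 with low iron and 0.06 with high iron, beside 0.08 and 0.10 over all genes tested.

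The gene called with low iron was ELOVL6, the elongase of saturated chains, at 50.7, 64.4 and 89.7 FPKM against 22.2, 34.8 and 42.5 FPKM in the controls. Its groups did not overlap, and the difference was 1.05 (SE 0.29), with a limma adjusted p over all genes of 1.0 at 3 digits. It was not called under median-of-ratios scaling or quantile normalization, or without low-iron 7 or control 4. With high iron ELOVL6 was at 40.9, 56.3 and 61.9 FPKM, 0.70 above control (SE 0.29). Of the other desaturases and elongases tested, FADS6 had the highest level, 62.8 FPKM, and lay 0.52 above control with low iron (SE 0.38) and -0.44 from it with high iron (SE 0.38).

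The gene called with high iron was MSMO1, a methylsterol oxidase that like the desaturases holds iron, at 107, 278 and 133 FPKM against 42.9, 142 and 61.0 FPKM in the controls. The groups overlapped, and the difference was 1.14 (SE 0.43, limma adjusted p 0.892). MSMO1 was not called without control 4, control 6 or high-iron 7, or with no filter on low values. Low-iron livers gave 152, 133 and 128 FPKM, 0.93 above control (SE 0.43). Among the other di-iron enzymes SC5D, a desaturase of cholesterol synthesis, differed by 0.60 (SE 0.47) with low iron and 0.33 (SE 0.47) with high iron. Of the 12 tested genes of this list, 0 were called with low iron and 1 with high iron (MSMO1) by limma at the thresholds.

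None of the 9 tested genes for elongation partners and electron donors was called. The electron donor genes CYB5R2, CYB5R3 and CYB5R4 of the same list had no row under these symbols and were not read. CYB5A, the cytochrome b5 that donates electrons to desaturases, was -0.25 from control with low iron (SE 0.21) and -0.19 with high iron (SE 0.21), and TECR, the reductase that closes each elongation cycle, 0.02 and -0.18 (SE 0.18). None of 17 regulators was called, with medians of 0.02 and 0.05. HNF4A, a hepatocyte transcription factor, differed by 0.28 and -0.25 (SE 0.23) and INSIG1, which holds back SREBP, by 0.19 and 0.20 (SE 0.40). In fatty acid synthesis 6 of 7 tested genes were higher with low iron (median 0.38), none called, among them the citrate carrier SLC25A1 at 0.03 (SE 0.33) and ACSS2 at 0.38 (SE 0.31). For acyl-CoA and phospholipid handling the most abundant genes were ACSL1 at 0.26 (SE 0.54) and FABP1 at 0.22 (SE 0.31). In the peroxisomal list, the last step to docosahexaenoic acid, SCP2 stood at 0.02 (SE 0.20) and HSD17B4 at 0.14 (SE 0.20), all with low iron.

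**Figure D5:**
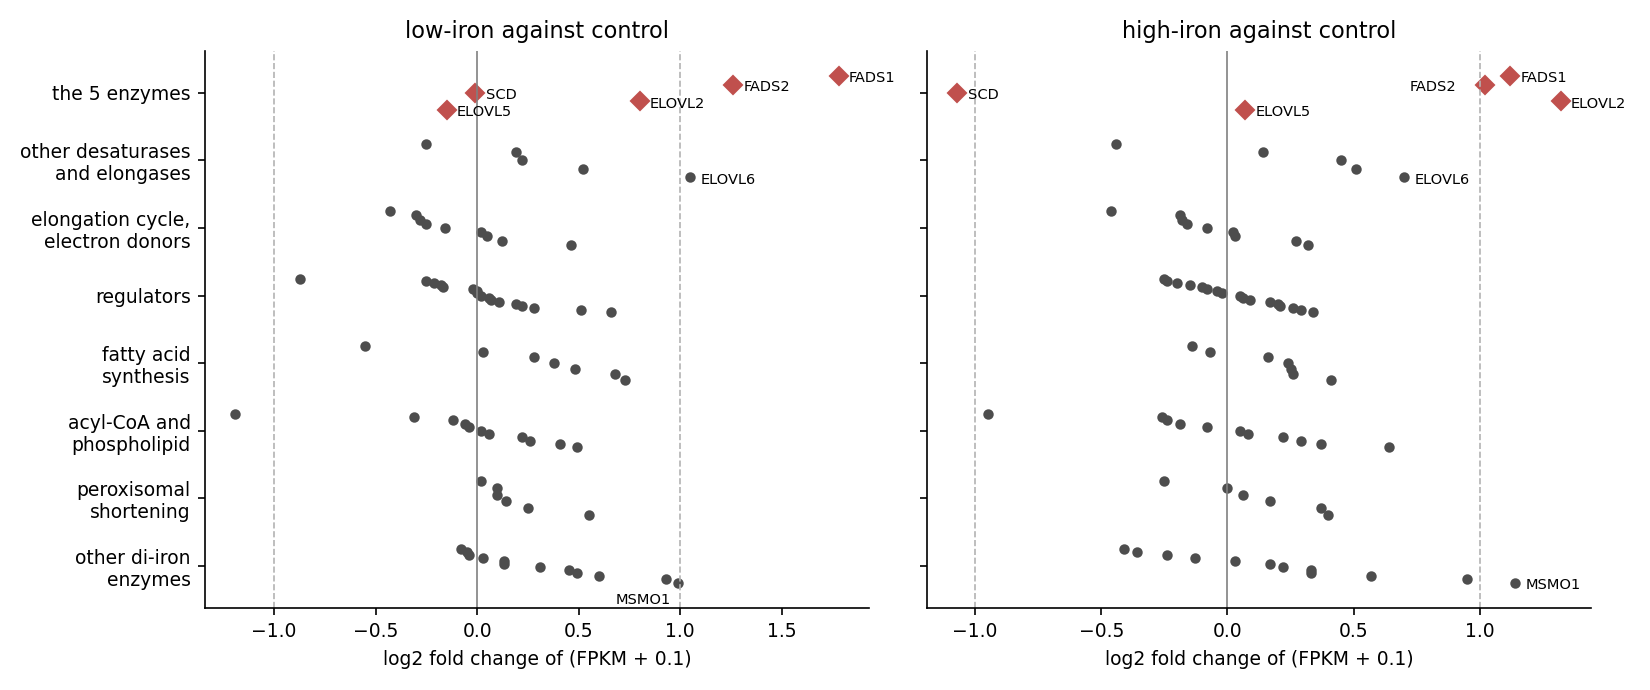
Log2 fold changes of FPKM + 0.1 against the control for the 5 enzymes (diamonds) and for the tested genes of 7 pathway lists (points), with low iron on the left and high iron on the right. Dashed lines mark a 2-fold change. FADS1 and FADS2 lie beyond 1 in both panels, where 1 list gene with low iron (ELOVL6) and 1 with high iron (MSMO1) were called.

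The libraries were liver by their markers. Hepatocyte markers summed to between 60800 and 88900 FPKM, most of it ALB (mean 56900 FPKM), and none of them was called. With high iron 3 of the 8 rows were higher (median log2 -0.03). CPS1 was -0.88 from control there (SE 0.24), with groups that did not overlap, as in 10.9% of all genes. Adipocyte markers, relevant for lipid genes, summed to 6.11 to 12.8 FPKM with low iron, 4.52 to 11.4 FPKM in the controls and 8.55 to 10.3 FPKM with high iron, and the defining ADIPOQ and LEP were at 0 in all 9 libraries. Endothelial markers summed to 94.6 to 140 FPKM with low iron, 98.3 to 102 FPKM in the controls and 135 to 146 FPKM with high iron. With high iron 6 of 6 were higher than control (median log2 0.5), and 1 of 6 (VWF) was called. With low iron 4 of the 6 were higher (median log2 0.22) and 0 called, and STAB2, one of the list, was 0.59 above control (SE 0.23). Stellate markers summed to 72.4 to 167, 78.3 to 110 and 113 to 227 FPKM. With high iron 6 of 6 were again higher than control (median log2 0.6), and 1 of 6 (COL1A1) was called. With low iron 4 of the 6 were higher (median log2 0.02). Macrophage markers summed to 409 to 492, 355 to 413 and 389 to 492 FPKM, 0 of 6 called and 5 of 6 higher with high iron (median log2 0.56). CD163, CD68, CSF1R and VSIG4 were 0.57, 0.54, 0.59 and 0.61 above control there (SE 0.17, 0.17, 0.17 and 0.16), with groups that did not overlap. T and NK cell markers summed to 10.9 to 15.4, 12.3 to 19.2 and 18.6 to 29.8 FPKM, 0 of 4 called and 4 of 4 higher with high iron (median 0.68). B and plasma cell markers summed to 6.05 to 13.0, 11 to 23.7 and 15.0 to 27.8 FPKM, with JCHAIN called higher in high iron than in low iron (1.15, SE 0.38). Bile duct markers summed to 4.07 to 7.43, 2.39 to 8.63 and 5.22 to 7.51 FPKM, 0 of 3 called. Erythroid markers summed to 476 to 2450, 211 to 1450 and 351 to 839 FPKM. Their part in the desaturase values was not tested, and in bulk liver fewer cells of a type and less RNA per cell cannot be told apart. Over all genes limma gave 0 with an adjusted p under 0.05 for low iron against control (463 unadjusted), 1 for high iron against control (704 unadjusted) and 0 for high iron against low iron (900 unadjusted).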

How the data were processed

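Liver RNA of 9 Wujin pigs (3 groups of 3) was measured by RNA-seq. The authors trimmed reads, aligned them with HISAT2 and assembled transcripts with StringTie on Sscrofa11.1, and deposited FPKM per gene and library; other scaling is not given in the sources used here. The deposited FPKM sum to between 416922 and 456420 per library. Of 25918 rows, 20660 carry an annotated gene: the row number was read as the position of the gene in NCBI annotation release 106 of the same build, and all 20660 fell on protein-coding genes (15031 when shifted by 1 place). The other 5258 are newly assembled genes without a name.

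The 12584 genes whose mean reached 0.5 FPKM were tested on log2(FPKM + 0.1) with limma 3.58.1 (R 4.3.3), in 1 fit of the 3 groups with a trended variance prior. Fold changes on this scale understate the change of low genes. A call needed at least a 2-fold difference with p under 0.05 before adjustment, the study's thresholds; adjusted p-values are Benjamini-Hochberg over all genes tested. Relations between genes were tested by exact permutation within groups. The fit and this test were first tested on simulated data.

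The 5 genes, the 7 pathway lists and the 9 marker lists were chosen with earlier results of these data known. Genes named in the text are the 5 enzymes, the pathway genes called in any comparison, the 2 most abundant of each list, the 3 genes most like each enzyme (1 of those of ELOVL5 is not reported here), and TFRC, HAMP and EIF1AY; FADS3, FTH1, FEN1, VWF, COL1A1, JCHAIN, 4 macrophage and 2 adipocyte markers were named beside these. From the lists, 4 pathway symbols had no row. Animal numbers 2 and 7 occur in both iron groups, but the deviations of same-numbered libraries had correlations of 0.02 and 0.02, so they were not taken as pairs.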

Additional observations from a re-analysis of the deposited data

How the results depend on the processing

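The counts of calls and the log2 differences of the 5 genes were recomputed with other pseudocounts, filters, scalings, weights, a 2-group fit, an EIF1AY covariate and without each library, and the pair correlations with other pseudocounts, 2 scalings and without each library. Ratios, likeness, spreads, neighbours and markers were not recomputed. Calls rest on unadjusted p with 3 pigs per group, and the causes of the changes below were not tested. FADS1 and FADS2 kept their direction against the control in all of these. Genes of the 5 called with low iron numbered 2 throughout, and 1 to 2 on leaving out a library (1 without control 4). With high iron they numbered 1 with a pseudocount of 1, 0 without a filter, 0 with median-of-ratios scaling, 0 with the EIF1AY covariate, 3 with array weights (ELOVL2 added) and 0 to 3 on leaving out a library. Pathway genes called with low iron numbered 0 with median-of-ratios scaling, 0 with quantile normalization, 4 with array weights and 0 to 8 on leaving out a library (8 without control 5). With high iron they numbered 2 on the TPM scale and 0 to 3 on leaving out a library, and for high against low iron 1 with median-of-ratios scaling, 2 with array weights and 0 to 2 on leaving out a library. The FADS1 and FADS2 relation within groups had r from 0.80 to 0.98 on leaving out a library, with p over 0.05 without low-iron 2 or any 1 high-iron library.

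The following signs turned. SCD with low iron was 0.52 with array weights and -0.73 to 0.81 on leaving out a library. ELOVL2 with low iron ranged from -0.05 to 1.60, ELOVL5 with low iron from -0.24 to 0.01 and with high iron from -0.02 to 0.24 on leaving out a library, and ELOVL5 with high iron was -0.06 with median-of-ratios scaling. ELOVL2 between high and low iron was -0.01 with the EIF1AY covariate and -0.28 to 1.56 on leaving out a library. Among pairs within groups, FADS1 and ELOVL5 gave r = 0.16 with median-of-ratios scaling, 0.14 with quantile normalization and -0.52 to 0.43 on leaving out a library. On leaving out a library FADS2 and ELOVL5 ranged from -0.11 to 0.84, SCD and ELOVL2 from -0.28 to 0.55 and ELOVL2 and ELOVL5 from -0.13 to 0.34.

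With animal numbers 2 and 7 as a replicate block for high against low iron (4 libraries), 1 of the 5 genes (SCD) and 2 pathway genes were called, and ELOVL2 was -0.17. The numbers are shared labels only.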
